A study of Mus musculus with 22 samples.

Results

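The 39 fatty acid genes described here were chosen by name from a list, with earlier results of these data known. They comprise 20 genes of synthesis, elongation, desaturation and activation and 19 genes of mitochondrial oxidation and its regulation. All 39 were rows of both deposited tables, which held 24411 genes each. RNA was measured in 22 libraries of primary neural stem cells from the hippocampus of adult mice, kept in growth medium with the mitogens EGF and bFGF. Genotype, strain and exact age of the mice were not given in the sources used here. The knockdown arm held 5 libraries of cells exposed for 3 days to lentivirus carrying a short hairpin RNA against Ogt (ShOgt) at 10 viral particles per cell, and 6 of cells given a control hairpin (ShLuc). The hairpin sequences were not given in the sources used here. The inhibitor arm held 5 libraries of cells that received OSMI-1, a cell-permeable inhibitor of O-GlcNAc transferase, at 12.5 µM over 24 h, and 6 of cells that received the same volume of DMSO (vehicle). Ogt encodes O-GlcNAc transferase, the enzyme that puts O-GlcNAc, a single sugar unit, on proteins of the nucleus and cytosol. The ShOgt libraries carry the numbers 1, 2, 3, 5 and 6 and the OSMI-1 libraries 1, 2, 4, 5 and 6, and values of these groups follow that order. The labels do not say whether libraries of a group came from separate cultures or animals, so the p-values speak only of spread among these samples, and that spread may be technical.

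Fatty acid synthesis takes place in the cytosol, where acetyl-CoA is carboxylated to malonyl-CoA and condensed by fatty acid synthase into palmitate, which is then elongated and desaturated at the endoplasmic reticulum. Oxidation takes place in mitochondria, which long-chain acyl groups enter as carnitine esters made by carnitine palmitoyltransferase 1. Malonyl-CoA, the substrate of synthesis, inhibits that enzyme. In adult hippocampal neural stem cells, synthesis by Fasn has been linked to proliferation and Cpt1a-dependent oxidation to quiescence and stem cell maintenance.

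Levels are the authors' normalized read counts, and since each arm's table was normalized on its own, levels are compared within an arm only. Log2 fold changes ± SE come from limma on log2(normalized count + 1), with ShOgt over ShLuc and OSMI-1 over vehicle, and a gene was called at an adjusted p below 0.05 over all genes tested in its arm. The added 1 by itself draws fold changes of low genes towards 0. After knockdown, however, the values of low genes were not all smaller than the authors' deposited ones. Library depth, as reads recovered from the values, was 7.22 to 13.2 M reads for ShOgt and ShLuc and 4.52 to 12.8 M reads for OSMI-1 and vehicle. Ogt averaged 424 ± 63.9 in ShOgt and 836 ± 89.8 in ShLuc libraries (SD, n = 5 and 6, exact permutation test over libraries, two-sided, p = 0.0022, the smallest possible), and 599.9 ± 42.5 in OSMI-1 and 455 ± 37.6 in vehicle libraries (n = 5 and 6, exact permutation p = 0.0022). Ogt was called lower after knockdown (-0.98 ± 0.11, adjusted p = 1.1e-06) and higher with OSMI-1 (0.40 ± 0.08, adjusted p = 0.001). In the knockdown arm, the counts of called markers and mitosis genes stand beside 16.4% lower and 15.4% higher over all genes tested. In the inhibitor arm those shares over all genes were 13.2% lower and 11.6% higher. A share near these is not a result about its list. Of 14 neural stem cell markers 12 and 11 passed the filter on low values in the knockdown and the inhibitor arm. The 14 summed to 52978 to 62037 in ShOgt and 50811 to 53620.4 in ShLuc libraries (of 12 tested, 3 lower and 2 higher). In the inhibitor arm they summed to 21975 to 23899 in OSMI-1 and 28181 to 32741 in vehicle libraries (of 11 tested, 5 lower and 0 higher). Tnc, the highest of the 14 in the knockdown arm, averaged 22145 in ShOgt and 13096 in ShLuc libraries. The median of the 14 marker means was 149 in ShOgt and 227 in ShLuc libraries, and 68.2 in OSMI-1 and 99.6 in vehicle libraries. Microglial markers and vessel markers each summed to at most 117 in any library. Ependymal markers summed to at most 256, with 72.0 to 117 in OSMI-1 and 149 to 210.1 in vehicle libraries. The 10 neuronal markers summed to 3523 to 3886 in ShOgt and 4022 to 4780.2 in ShLuc libraries (of 6 tested, 2 lower and 2 higher), and to 2264 to 3100 in OSMI-1 and 2021 to 2478 in vehicle libraries (of 6 tested, 4 lower and 1 higher). The 10 astrocyte markers summed to 8201 to 9612 in ShOgt and 8899 to 10149.8 in ShLuc libraries (of 8 tested, 2 lower and 1 higher), and to 4613 to 5294 in OSMI-1 and 4709 to 5114 in vehicle libraries (of 7 tested, 2 lower and 3 higher). The 10 oligodendrocyte lineage markers, most of whose sum was Olig1, summed to 11671 to 13474 in ShOgt and 19274 to 22398 in ShLuc libraries (of 5 tested, 3 lower and 1 higher), and to 11694 to 15534 in OSMI-1 and 10474 to 13302 in vehicle libraries (of 6 tested, 1 lower and 1 higher). All 10 mitosis genes listed were lower in both arms, summing to 9336 to 11949 in ShOgt against 18372 to 20755 in ShLuc libraries, and to 3840 to 4306 in OSMI-1 against 10387 to 12004 in vehicle libraries. The part of these differences in the changes of the fatty acid genes was not tested, and in bulk RNA fewer cells of a type and less RNA per cell cannot be told apart.

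After Ogt knockdown 9 synthesis-side genes, among them the desaturases Fads1, Fads2, Scd1 and Scd2, were lower, and all 4 tested genes listed for the carnitine shuttle were higher. These 4 include Cpt1c, which sits at the endoplasmic reticulum and has little catalytic activity. Of the 19 synthesis-side genes tested, 9 were called lower, 1 higher and 9 were not called. Of the 17 oxidation-side genes tested, 6 were called higher, 1 lower and 10 were not called. Counting enzymes and carriers only, which leaves out Cpt1c and the regulators, 5 were called higher. Over all 12136 genes tested, 31.8% were called, 16.4% lower and 15.4% higher (31.7% by edgeR and 33.8% by DESeq2), against 47.4% lower on the synthesis side and 35.3% higher on the oxidation side. The median log2 fold change was -0.23 on the synthesis side and 0.17 on the oxidation side, beside 0.01 over all genes tested. Every ShOgt library lay below every ShLuc library for 7 synthesis-side genes and 1 oxidation-side gene, as for 9.96% of all genes tested. Every ShOgt library lay above every ShLuc library for 1 synthesis-side and 5 oxidation-side genes, as for 8.83% of all genes tested. Without ShLuc 1, ShLuc 3 and ShOgt 3, which stood apart from their groups on principal components, 8 synthesis-side genes were called lower and 1 higher, and 7 oxidation-side genes higher and 2 lower. Acacb, Cpt1b and Ppard did not pass the filter on low values in either arm and were not tested.

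**Figure D1:**
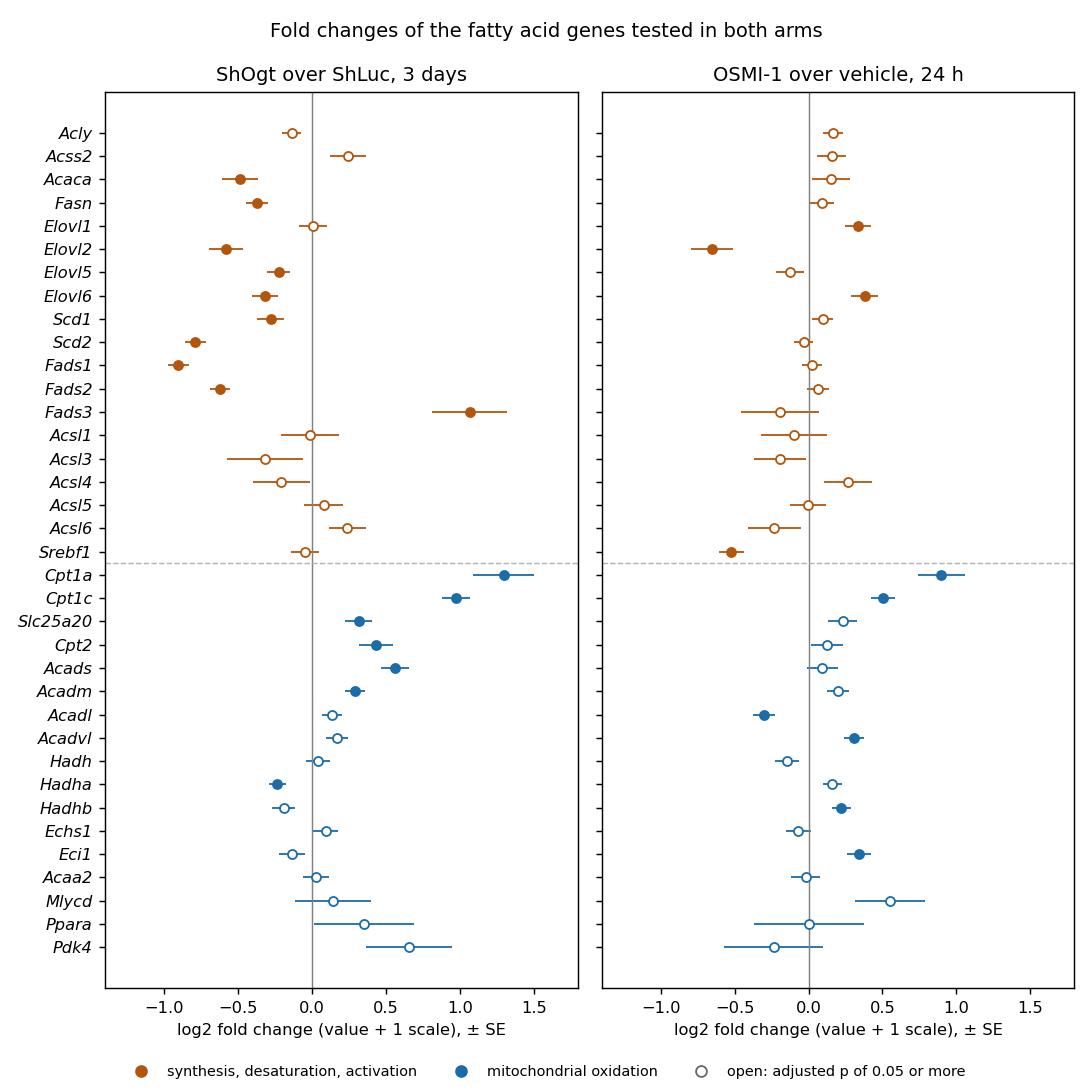
Log2 fold change ± SE of the 36 fatty acid genes tested, for ShOgt over ShLuc (left, n = 5 and 6 libraries) and OSMI-1 over vehicle (right, n = 5 and 6); filled points have an adjusted p below 0.05 and the dashed line parts synthesis from oxidation. After knockdown 9 synthesis genes were lower and 6 oxidation genes higher, and after OSMI-1 these counts were 2 and 5.

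Of the genes that supply and condense the building blocks, both that lead from acetyl-CoA to palmitate were lower after knockdown. Acaca, the carboxylase that makes malonyl-CoA, stood at 274, 309.7, 257, 304 and 281 in the ShOgt libraries, against 344 to 526 (median 386) in the 6 ShLuc libraries. Each ShOgt library was below each ShLuc library, and the log2 fold change was -0.49 ± 0.12 (adjusted p = 0.0037). Fasn, fatty acid synthase, stood at 1929.9, 1842, 1985, 2074 and 1688 in the ShOgt libraries, against 2105 to 2774 (median 2490.2) in ShLuc libraries. The groups did not overlap, although ShOgt 5 and the lowest ShLuc library lay close together, and the log2 fold change was -0.37 ± 0.08 (adjusted p = 0.00099). Acly, which cleaves citrate into cytosolic acetyl-CoA, averaged 6323 ± 501 in ShOgt and 6949 ± 432 in ShLuc libraries and was not called (-0.14 ± 0.06, adjusted p = 0.11). Acss2, which makes acetyl-CoA from acetate, averaged 471 ± 78.4 in ShOgt and 395 ± 40.8 in ShLuc libraries and was not called (0.24 ± 0.12, adjusted p = 0.13). Acacb, the acetyl-CoA carboxylase isoform of the mitochondrial surface, averaged 3.14 ± 2.44 in ShOgt and 4.40 ± 3.11 in ShLuc libraries, below the filter.

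Among the elongases, which lengthen acyl chains at the endoplasmic reticulum, 3 of 4 were lower. Elovl2, which elongates polyunsaturated chains, stood at 237, 291, 222, 219.8 and 255 in the ShOgt libraries and at 307 to 394 (median 384) in ShLuc libraries, with no overlap (-0.58 ± 0.12, adjusted p = 0.00069). Elovl6, which elongates palmitate to stearate, stood at 783, 772, 714, 729.9 and 774 in the ShOgt libraries and at 828 to 1137 (median 924) in ShLuc libraries. Its ShOgt libraries all lay below its ShLuc libraries (-0.32 ± 0.09, adjusted p = 0.0086). Elovl5, which also acts on polyunsaturated chains, averaged 1060.4 ± 72.0 in ShOgt and 1244 ± 111 in ShLuc libraries (-0.23 ± 0.08, adjusted p = 0.036). The Elovl5 groups overlapped in 1 ShOgt library, and omitting 1 library ended the call in 7 cases (ShLuc 1, 2 and 4 and ShOgt 1, 2, 3 and 6, adjusted p = 0.053 to 0.077). Elovl1, an elongase of saturated chains, averaged 1308 ± 77.0 in ShOgt and 1312 ± 197 in ShLuc libraries and was not called (0.01 ± 0.09, adjusted p = 0.97).

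All 5 desaturase genes were called after knockdown, 4 lower and 1 higher, and Fads1 and Scd2 had the smallest adjusted p-values among the 36 genes tested. All 5 lie on chromosome 19 in 2 clusters. Scd2 (chromosome 19, 44293674 to 44306864, plus strand on GRCm38) lies 87.6 kb from Scd1 (minus strand), and Fads1 (chromosome 19, 10182888 to 10196877, plus strand) lies 81.1 kb from Fads2 (minus strand), which in turn lies 2.65 kb from Fads3 (plus strand). The 3′UTRs of Scd2, Fads1 and Scd1, and among the other fatty acid genes only that of Acsl5, hold the 7-base sequence AACATGC, which earlier results of these data had singled out among genes lower after knockdown. The sites are printed because 3 of these 4 genes were lower after knockdown, with 10 bases on either side, in the direction of transcription and with AACATGC in capitals, from GENCODE M21 transcripts on GRCm38.
Scd2: ctgctatgaaAACATGCaggactccgt
Fads1: agaatataggAACATGCccggagagac
Scd1: aaagccaaggAACATGCtgttttgatg
Acsl5: ctggtcttgaAACATGCtaggctgtac
They lie at chr19:44306689-44306715, chr19:10196041-10196067, chr19:44397586-44397612 and chr19:55297642-55297668. Among tested genes whose 3′UTR could be searched, 28.4% of the 1142 that hold AACATGC and 15.6% of the 10198 that do not were called lower after knockdown, and the median log2 fold changes were -0.17 and 0.02. Since AACATGC was singled out from these same data among genes lower after knockdown, this difference was built in and is no test. The length of the 3′UTRs was not matched. Of the 9 synthesis-side genes called lower, 3 hold AACATGC and 6 do not, which is a count and no test. Over all genes tested, 16.4% were called lower. Ogt itself also holds AACATGC in its 3′UTR. A match to these letters is a description of the sequence, and its part in the changes was not tested.

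Scd2, one of the stearoyl-CoA desaturases that put the first double bond into saturated chains, stood at 6036, 6520.2, 5693, 6172 and 6550.4 in the ShOgt libraries. In the 6 ShLuc libraries it stood at 9370.1 to 12166 (median 10560.4). The groups were far apart, with 5 of 5 ShOgt libraries below every ShLuc library, and the log2 fold change was -0.79 ± 0.07 (adjusted p = 8.4e-08). Fads1, a desaturase of polyunsaturated chains, stood at 1952, 2045, 1959, 1942 and 2036 in the ShOgt libraries, against 3104 to 4072 (median 3829) in ShLuc libraries. The ShOgt libraries lay close together and all below the lowest ShLuc library, with a log2 fold change of -0.91 ± 0.07 (adjusted p = 1.7e-08), so that ShOgt libraries held 53.1% of the ShLuc mean. Fads2, the desaturase that acts earlier on the same chains, stood at 1941, 1975, 2038, 2083 and 1766 in the ShOgt libraries and at 2782 to 3294 (median 3031) in ShLuc libraries. Its groups did not overlap either (-0.63 ± 0.07, adjusted p = 8.3e-07), and its 3′UTR does not hold AACATGC.

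**Figure D2:**
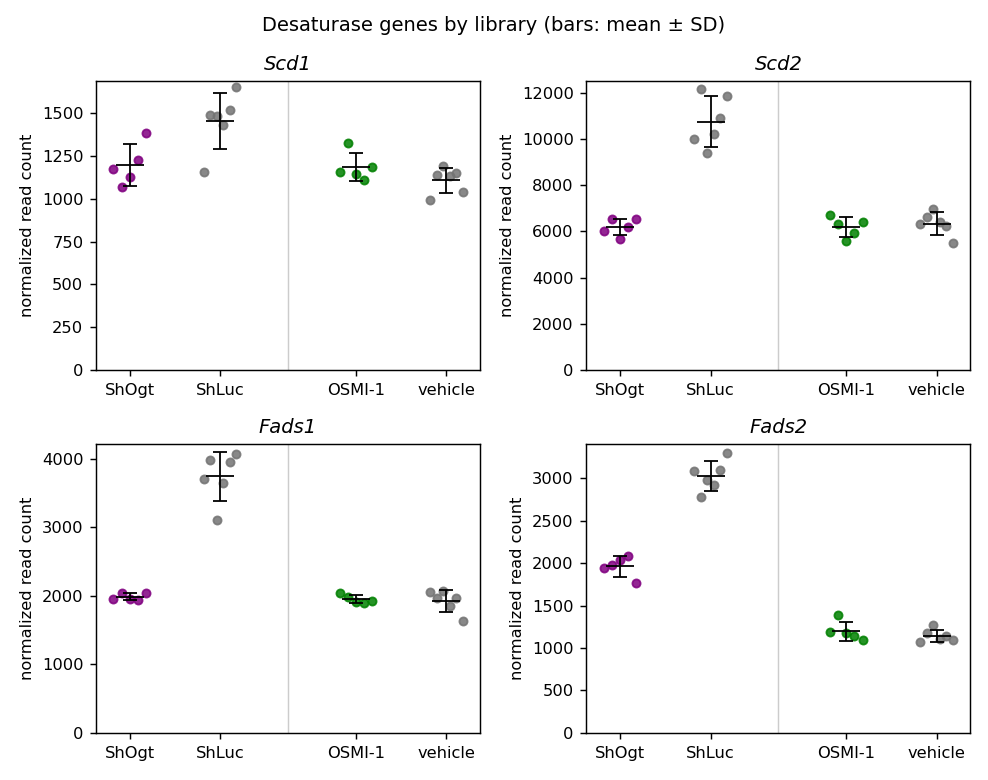
Normalized read counts of Scd1, Scd2, Fads1 and Fads2 in each library (points), with the mean ± SD of each group (bars), from left to right ShOgt, ShLuc, OSMI-1 and vehicle; the grey line parts tables normalized separately. Scd2, Fads1 and Fads2 were lower in every ShOgt library than in any ShLuc library, and no gene shown was called between OSMI-1 and vehicle.

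Scd1, the close paralog of Scd2, averaged 1195 ± 121 in ShOgt and 1454 ± 164 in ShLuc libraries (-0.28 ± 0.09, adjusted p = 0.024). Its groups overlapped, with 2 of 5 ShOgt libraries below every ShLuc library, and the call was lost without ShLuc 5, ShLuc 6, ShOgt 1 or ShOgt 2 (adjusted p = 0.0501 to 0.077). Per kilobase of the longest coding transcript, Scd2 had 4.19 to 5.41 times the level of Scd1 in ShOgt libraries and 5.60 to 7.65 times in ShLuc libraries, so these ranges did not overlap. The split of reads between these closely related paralogs depends on the authors' counting and is uncertain. Fads3, the third member of its cluster, moved the other way at a low level, with 100.5, 89.8, 84.7, 79.0 and 83.2 in the ShOgt libraries and 20.6 to 65.4 (median 42.6) in ShLuc libraries. All 5 ShOgt libraries lay above all ShLuc libraries (1.07 ± 0.25, adjusted p = 0.0029).

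None of the 5 long-chain acyl-CoA synthetases, which activate free fatty acids to acyl-CoA for either fate, was called after knockdown by limma, edgeR or DESeq2, and none had an unadjusted p below 0.05. Their log2 fold changes ran from -0.32 (Acsl3, 121 ± 20.5 in ShOgt and 164 ± 72.5 in ShLuc libraries) to 0.24 (Acsl6, 310.1 ± 31.6 and 264 ± 35.0 in the same groups). Acsl5 averaged 445 ± 74.2 in ShOgt and 422 ± 71.8 in ShLuc libraries, Acsl1 123 ± 27.0 and 124 ± 30.4, and Acsl4 90.2 ± 26.7 and 102 ± 14.2. The smallest adjusted p of these 5 was 0.16, for Acsl6. Srebf1, whose product SREBP-1 is the transcription factor best known for activating synthesis and desaturation genes, averaged 2156 ± 309 in ShOgt and 2218 ± 220.3 in ShLuc libraries and was not called (-0.05 ± 0.10, adjusted p = 0.75).

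All 4 tested genes listed for the carnitine shuttle, Cpt1c among them, were higher after knockdown. Cpt1a, the isoform of carnitine palmitoyltransferase 1 that controls entry of long-chain acyl groups into mitochondria in most tissues outside muscle, stood at 671, 486, 439, 503 and 535 in the ShOgt libraries. In the 6 ShLuc libraries Cpt1a stood at 114 to 387 (median 208). Every ShOgt library lay above every ShLuc library, of which ShLuc 5 was the highest, and the log2 fold change was 1.30 ± 0.21 (adjusted p = 9.1e-05). Cpt1c, the isoform of neurons and brain, which sits at the endoplasmic reticulum and has little catalytic activity, stood at 2633, 2369, 2743, 2057 and 2425 in the ShOgt libraries and at 1092 to 1456 (median 1219.7) in ShLuc libraries. Its groups were well apart (0.97 ± 0.09, adjusted p = 2.5e-07). Per kilobase, Cpt1c had 6.06 to 9.66 times the level of Cpt1a in ShOgt libraries and 5.81 to 14.9 times in ShLuc libraries. Cpt1b, the muscle isoform, had no read in any ShOgt library and averaged 3.34 ± 6.38 in ShLuc libraries, below the filter.

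Slc25a20, the carrier that exchanges acylcarnitine for carnitine across the inner membrane, stood at 905, 1010.1, 918, 1072 and 941 in the ShOgt libraries and at 617 to 854 (median 805) in ShLuc libraries. The groups did not overlap (0.32 ± 0.09, adjusted p = 0.012), and ShLuc 3 lay well below the other ShLuc libraries. Cpt2, which remakes acyl-CoA inside the mitochondrion, stood at 811, 910.5, 949, 757 and 947 in the ShOgt libraries and at 469 to 784 (median 662) in ShLuc libraries. For Cpt2, 4 of 5 ShOgt libraries lay above every ShLuc library (0.43 ± 0.12, adjusted p = 0.0074).

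**Figure D3:**
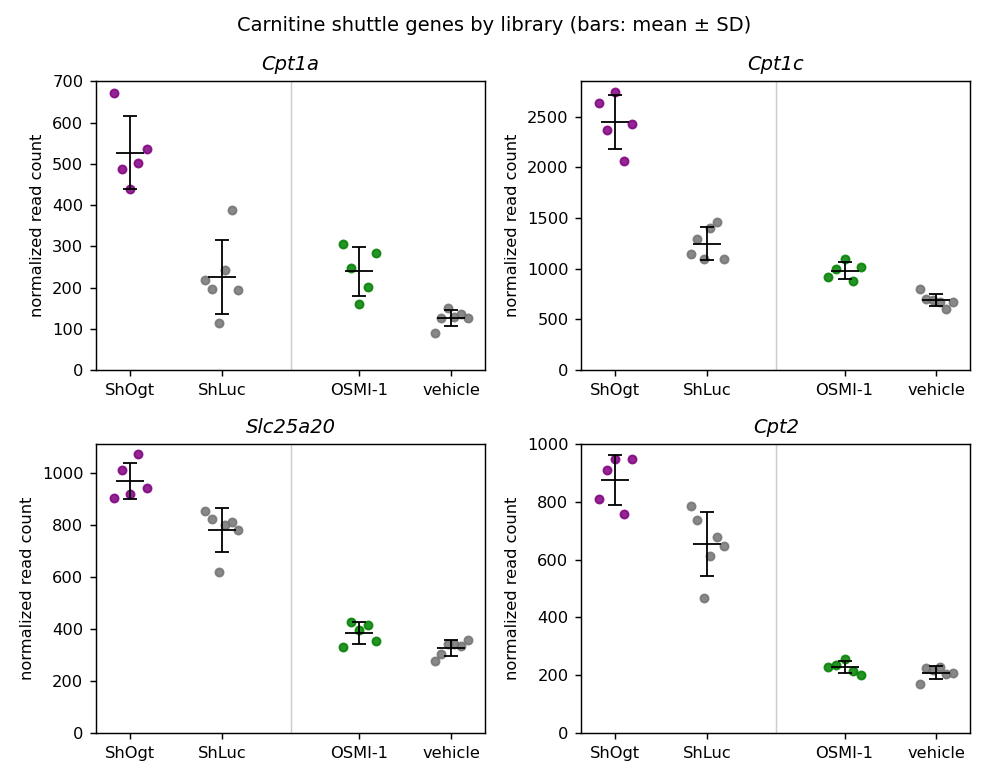
Normalized read counts of Cpt1a, Cpt1c, Slc25a20 and Cpt2 in each library (points), with the mean ± SD of each group (bars), from left to right ShOgt, ShLuc, OSMI-1 and vehicle; the grey line parts tables normalized separately. All 4 genes were called higher in ShOgt, and Cpt1a and Cpt1c also in OSMI-1.

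The promoters of Cpt1a and Cpt1c are printed because both genes were called higher in both arms. Each sequence runs from 250 bases before to 50 bases after the gene start in the direction of transcription (RefSeq, GRCm38.p6). Capitals mark CCAAT boxes (CCAAT) and GC boxes (GGGGCGGGG), searched on both strands (ATTGG and CCCCGCCCC are matches on the other strand). CCAAT and GC boxes do not overlap here.
Cpt1a: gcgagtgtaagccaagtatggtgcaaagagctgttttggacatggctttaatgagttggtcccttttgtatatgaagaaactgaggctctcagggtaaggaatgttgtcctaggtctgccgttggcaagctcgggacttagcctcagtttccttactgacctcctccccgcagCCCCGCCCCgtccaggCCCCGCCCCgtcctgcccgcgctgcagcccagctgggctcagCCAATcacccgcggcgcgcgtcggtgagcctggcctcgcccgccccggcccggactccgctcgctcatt
Cpt1c: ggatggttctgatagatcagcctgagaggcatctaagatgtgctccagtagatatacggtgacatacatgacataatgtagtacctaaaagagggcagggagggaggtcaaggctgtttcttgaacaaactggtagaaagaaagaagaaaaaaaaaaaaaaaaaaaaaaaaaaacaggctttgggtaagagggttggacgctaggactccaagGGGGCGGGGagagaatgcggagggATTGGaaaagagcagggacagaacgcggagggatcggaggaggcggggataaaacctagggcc
They lie at chr19:3323051-3323350 (plus strand) and chr7:44974802-44975101 (minus strand). The Cpt1a window held 1 CCAAT box and 2 GC boxes, and the Cpt1c window 1 of each. Over 32851 RefSeq promoter windows of this length, 37.4% held CCAAT and 11.4% held GGGGCGGGG, against 20 and 13 of the 41 windows found for 34 of the fatty acid genes. An E-box (CACGTG) was found in 1 of the 41, that of Elovl5, beside 7.15% of all windows. These matches describe letters in a short window, and their part in the changes was not tested.

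Of the 4 acyl-CoA dehydrogenases, which take the first step of each oxidation cycle, those for short and medium chains were higher after knockdown. Acads, the short-chain enzyme, stood at 1142, 1062, 1207, 1056 and 1134 in the ShOgt libraries and at 614 to 910.4 (median 743) in ShLuc libraries, without overlap (0.56 ± 0.10, adjusted p = 0.00019). Acadm, the medium-chain enzyme, averaged 1733 ± 73.7 in ShOgt and 1417 ± 51.2 in ShLuc libraries, again without overlap (0.29 ± 0.07, adjusted p = 0.002). The long-chain enzyme Acadl averaged 1639 ± 53.1 in ShOgt and 1493 ± 78.5 in ShLuc libraries (0.14 ± 0.07, adjusted p = 0.13). The very-long-chain enzyme Acadvl averaged 3640.0 ± 311 in ShOgt and 3246 ± 311 in ShLuc libraries (0.17 ± 0.08, adjusted p = 0.1), and neither long-chain gene was called.

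Of the 6 genes of the later steps, 1 was called lower after knockdown and 5 were not called. Hadha, the alpha subunit of the mitochondrial trifunctional protein that carries out these steps on long chains, averaged 2094 ± 78.0 in ShOgt and 2465 ± 79.5 in ShLuc libraries. Hadha was called lower (-0.23 ± 0.06, adjusted p = 0.0053), and its groups did not overlap. Hadhb, the beta subunit, starts 85 bases away on the opposite strand of chromosome 5, and averaged 3869 ± 373 in ShOgt and 4421 ± 358 in ShLuc libraries (-0.19 ± 0.08, adjusted p = 0.055). Hadhb was called lower without ShLuc 3 or without ShOgt 6 (adjusted p = 0.015 and 0.025). Eci1, the isomerase needed for unsaturated chains, averaged 919 ± 46.8 in ShOgt and 1016 ± 119.9 in ShLuc libraries (adjusted p = 0.25). Hadh, Echs1 and Acaa2, the short-chain hydroxyacyl-CoA dehydrogenase, the short-chain hydratase and the thiolase, had log2 fold changes of 0.04, 0.09 and 0.03 and were not called. Their means were 1155 ± 94.6, 1292 ± 124 and 942 ± 108 in ShOgt libraries and 1123 ± 70.7, 1214 ± 133 and 920.2 ± 45.8 in ShLuc libraries.

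The regulators of oxidation were present at low levels. Mlycd, which removes malonyl-CoA, averaged 71.9 ± 17.2 in ShOgt and 66.4 ± 22.2 in ShLuc libraries, and Pdk4, a kinase that turns off pyruvate oxidation, 47.5 ± 12.2 and 30.3 ± 9.19. Ppara, a nuclear receptor for fatty acids, averaged 29.2 ± 5.12 in ShOgt and 24.1 ± 9.99 in ShLuc libraries, and the related receptor gene Ppard 10.8 ± 6.04 and 8.37 ± 5.28, below the filter. None of the 3 tested regulators was called by limma, edgeR or DESeq2 and 1, Pdk4, had an unadjusted p below 0.05, with adjusted p from 0.094 for Pdk4 to 0.71 for Mlycd.

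After 24 h of OSMI-1, 4 synthesis-side genes were called, in both directions, and 5 oxidation-side genes were higher. Of 19 synthesis-side genes tested, 2 were called lower, 2 higher and 15 were not called. Of 17 oxidation-side genes, 5 were called higher, Cpt1c among them, 1 was called lower and 11 were not called. Over all 11349 genes tested in this arm, 24.8% were called, 13.2% lower and 11.6% higher (24.7% by edgeR and 26.5% by DESeq2), so the synthesis shares of 10.5% in each direction lay near the background and the oxidation share of 29.4% higher lay above it. The median log2 fold change was 0.02 on the synthesis side and 0.16 on the oxidation side, beside 0.00 over all genes tested. Every OSMI-1 library lay below every vehicle library for 2 synthesis-side and 1 oxidation-side genes, as for 7.71% of all genes, and above for 0 synthesis-side and 5 oxidation-side genes, as for 6.27% of all genes. Without vehicle library 1 and OSMI-1 library 5, which stood apart, the synthesis counts were again 2 and 2 and the oxidation counts 6 higher and 1 lower.

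On the synthesis side, Srebf1 and Elovl2 were lower and Elovl1 and Elovl6 higher with OSMI-1. Srebf1 stood at 717, 577, 544, 514 and 560.1 in the OSMI-1 libraries and at 763 to 886 (median 844) in vehicle libraries. OSMI-1 library 1 was the highest of its group and still below every vehicle library (-0.52 ± 0.08, adjusted p = 6.6e-05). Elovl2 stood at 106, 79.1, 108, 89.5 and 96.2 in the OSMI-1 libraries and at 112 to 168 (median 157) in vehicle libraries. The lowest vehicle library, number 5, lay just above the OSMI-1 libraries and apart from its own group (-0.65 ± 0.14, adjusted p = 0.0013). Elovl6 stood at 762, 692, 618, 757 and 913 in the OSMI-1 libraries and at 531 to 627 (median 562) in vehicle libraries, with 4 of 5 OSMI-1 libraries above every vehicle library (0.38 ± 0.09, adjusted p = 0.0033). Elovl1 stood at 717, 727, 648, 591 and 692 in the OSMI-1 libraries and at 459 to 599 (median 538) in vehicle libraries. It likewise overlapped in 1 OSMI-1 library, number 5 (0.33 ± 0.09, adjusted p = 0.0068).

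No desaturase was called with OSMI-1 by limma, edgeR or DESeq2, and none had an unadjusted p below 0.05. Scd2 averaged 6187 ± 439 in OSMI-1 and 6340.2 ± 496 in vehicle libraries (-0.03 ± 0.07, adjusted p = 0.76), and Fads1 averaged 1951 ± 58.2 in OSMI-1 and 1926 ± 163 in vehicle libraries (0.02 ± 0.07, adjusted p = 0.85). Scd1 averaged 1182 ± 82.0 in OSMI-1 and 1107 ± 74.1 in vehicle libraries, Fads2 1195 ± 115 and 1140.0 ± 73.1, and Fads3 30.0 ± 10.6 and 33.1 ± 6.67. None of the 4 genes that hold AACATGC was called in this arm, where 10.9% of the 1100 tested genes that hold it and 13.6% of the 9587 that do not were called lower. Acly, Acss2, Acaca and Fasn had log2 fold changes of 0.16, 0.16, 0.15 and 0.09, none called by these tools and 1, Acly, with an unadjusted p below 0.05. Fasn averaged 1654 ± 111 in OSMI-1 and 1562 ± 189 in vehicle libraries, Acaca 216 ± 29.7 and 195 ± 28.5, Acly 2713 ± 150.0 and 2424 ± 193, and Acss2 268 ± 25.6 and 240.4 ± 18.6. Elovl5 averaged 798 ± 96.3 in OSMI-1 and 872 ± 106 in vehicle libraries and was not called (adjusted p = 0.36). The 5 Acsl genes had log2 fold changes from -0.23 (Acsl6) to 0.27 (Acsl4), with means from 56.7 (Acsl1) to 210.0 (Acsl5) in OSMI-1 libraries and from 57.2 (Acsl1) to 213 (Acsl5) in vehicle libraries, and none was called by these tools or had an unadjusted p below 0.05.

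On the oxidation side both expressed isoforms of carnitine palmitoyltransferase 1 were higher with OSMI-1. Cpt1a stood at 305, 248, 159.7, 200.5 and 283 in the OSMI-1 libraries and at 89.9 to 150.1 (median 127) in vehicle libraries. The OSMI-1 libraries were spread widely, and the lowest, number 4, lay just above the highest vehicle library (0.90 ± 0.16, adjusted p = 0.00018). Cpt1c stood at 915, 994, 1092, 883 and 1018 in the OSMI-1 libraries and at 607 to 796 (median 685) in vehicle libraries, without overlap (0.50 ± 0.08, adjusted p = 5.4e-05). Slc25a20 averaged 384 ± 41.5 in OSMI-1 and 326 ± 30.0 in vehicle libraries, and Cpt2 227 ± 20.3 and 208 ± 21.7, and neither was called (adjusted p = 0.088 and 0.43).

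Among the dehydrogenases, the very-long-chain and long-chain genes moved in opposite directions. Acadvl stood at 1197, 1237, 1265, 1142 and 1131 in the OSMI-1 libraries and at 900.5 to 1058 (median 968) in vehicle libraries, with every OSMI-1 library above every vehicle library (0.31 ± 0.07, adjusted p = 0.0018). Acadl stood at 848, 783, 829.7, 866 and 781 in the OSMI-1 libraries and at 926 to 1207 (median 1005) in vehicle libraries. Every OSMI-1 library lay below every vehicle library, of which vehicle 1 was far the highest (-0.30 ± 0.08, adjusted p = 0.0052). Acads and Acadm had log2 fold changes of 0.09 and 0.20 and were not called, with means of 338 ± 39.5 and 751 ± 36.0 in OSMI-1 and 317 ± 42.1 and 656 ± 53.7 in vehicle libraries. Eci1 stood at 581, 520.0, 541, 589 and 600.2 in the OSMI-1 libraries and at 404 to 494 (median 439) in vehicle libraries, and its groups did not overlap (0.34 ± 0.08, adjusted p = 0.0034). Hadhb averaged 2166 ± 107 in OSMI-1 and 1861 ± 131 in vehicle libraries and was called higher (0.22 ± 0.07, adjusted p = 0.016). Its neighbour Hadha averaged 1436 ± 86.4 in OSMI-1 and 1283 ± 52.4 in vehicle libraries and was not called by limma (0.16 ± 0.07, adjusted p = 0.074), but was in the authors' deposited table.

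Hadh averaged 576 ± 41.9 in OSMI-1 and 637 ± 50.2 in vehicle libraries, Echs1 507 ± 51.6 and 531 ± 33.2, and Acaa2 311 ± 39.8 and 314 ± 22.5, none called. The regulators Mlycd, Ppara and Pdk4 averaged 43.7 ± 7.63, 13.5 ± 3.54 and 21.0 ± 10.7 in OSMI-1 libraries and 30.1 ± 7.62, 14.3 ± 6.87 and 22.7 ± 5.55 in vehicle libraries. None of them was called by limma, edgeR or DESeq2, and only Mlycd had an unadjusted p below 0.05, with an adjusted p of 0.094 (0.55 ± 0.24). Acacb averaged 3.17 ± 2.18 in OSMI-1 and 2.86 ± 4.18 in vehicle libraries, Ppard 7.04 ± 3.27 and 7.54 ± 3.31, and Cpt1b 0 and 0.199 ± 0.487, all below the filter.

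Cpt1a and Cpt1c were the only fatty acid genes called higher in both arms, as were 2.72% of the 11269 genes tested in both. Elovl2 was the only one called lower in both, as were 5.64% of those genes. Elovl6 was called lower after knockdown and higher with OSMI-1. The share of all genes called in opposite directions was not computed, so the Elovl6 calls are a description only. The arms share no library, but they differ in agent, in duration and in the direction of the change in Ogt mRNA. Ogt mRNA was lower after knockdown and higher with OSMI-1. Lentivirus was used for ShOgt and ShLuc cells only, and the ranges of library depth given above also differ. The ribosomal precursor Rn45s took 0.92 to 1.25% of reads across ShOgt and ShLuc libraries. Across OSMI-1 and vehicle libraries its share was higher, at 4.81 to 14.2%. These differences between the arms cannot be told apart here. The difference of log2 fold changes itself, knockdown minus inhibitor, was called for 10 of 19 synthesis-side and 6 of 17 oxidation-side genes, beside 23.9% of all genes tested in both arms. These p-values came from the limma estimates and standard errors of both arms with approximate degrees of freedom, adjusted over all 11269 genes. The 3 smallest adjusted p-values among the fatty acid genes were those of desaturases, with -0.93 ± 0.10 for Fads1 (adjusted p = 9.2e-10), -0.76 ± 0.10 for Scd2 (adjusted p = 7.2e-08) and -0.69 ± 0.10 for Fads2 (adjusted p = 7.9e-07). Fads3 differed in the other direction (1.26 ± 0.36, adjusted p = 0.0093). The Elovl6 changes, of opposite sign, differed by -0.70 ± 0.13 (adjusted p = 4.2e-05). Acaca (-0.64 ± 0.17, adjusted p = 0.0053) and Fasn (-0.46 ± 0.11, adjusted p = 0.0017) differed as well, each lower after knockdown and not called with OSMI-1. Scd1 (-0.37 ± 0.12) and Acly (-0.30 ± 0.09) also passed (adjusted p = 0.016 and 0.015), and lost the call when libraries were scaled to total reads (adjusted p = 0.066 and 0.055).

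The Srebf1 changes differed by 0.48 ± 0.13 (adjusted p = 0.0051). On the oxidation side, both subunits of the trifunctional protein differed, Hadha by -0.40 ± 0.09 (adjusted p = 0.00075) and Hadhb by -0.41 ± 0.10 (adjusted p = 0.0017), each lower after knockdown relative to its change with OSMI-1. Eci1 differed in the same direction (-0.48 ± 0.12, adjusted p = 0.0026). Acads (0.47 ± 0.14, adjusted p = 0.015) and Acadl (0.44 ± 0.10, adjusted p = 0.0011) differed towards higher values after knockdown. The rise of Cpt1c was larger after knockdown by 0.47 ± 0.12 (adjusted p = 0.0042), a call lost without the 5 libraries that stood apart on principal components (ShLuc 1, ShLuc 3, ShOgt 3, vehicle library 1 and OSMI-1 library 5), where the difference was 0.28 (adjusted p = 0.10). For Cpt1a the difference of 0.40 ± 0.26 was not called (adjusted p = 0.29), nor was that of Elovl2 (0.07 ± 0.18, adjusted p = 0.82).

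**Figure D4:**
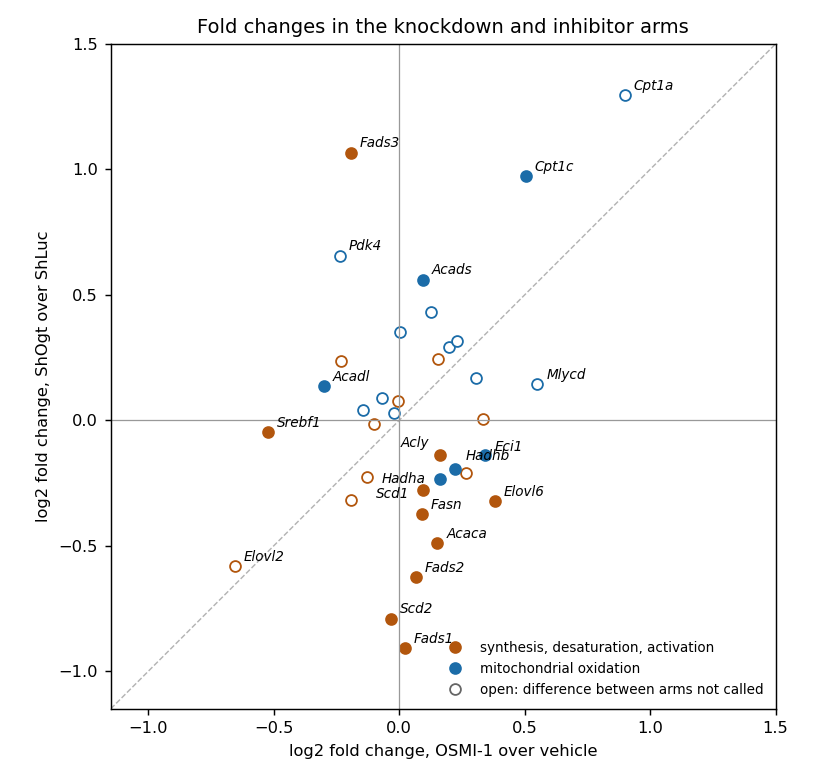
Log2 fold change after knockdown (vertical axis, ShOgt over ShLuc) against that after OSMI-1 (horizontal axis, OSMI-1 over vehicle) for the 36 fatty acid genes tested; filled points are genes whose fold changes differed between the arms, and the dashed line marks equal changes. Fads1, Scd2 and Fads2 lie low near an OSMI-1 change of 0, and Cpt1a and Cpt1c lie at the upper right.

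The same contrast was visible library by library. Averaged over the tested genes of a side, the log2 deviation from the ShLuc mean lay between -0.23 and -0.16 in ShOgt libraries on the synthesis side, against -0.08 to 0.06 in ShLuc libraries. On the oxidation side it lay between 0.22 and 0.34 in ShOgt libraries, against -0.08 to 0.11 in ShLuc libraries. In the inhibitor arm the synthesis side gave -0.07 to 0.04 in OSMI-1 and -0.06 to 0.06 in vehicle libraries, which overlapped. The oxidation side gave 0.15 to 0.25 in OSMI-1 and -0.04 to 0.04 in vehicle libraries. These means are descriptions of the chosen genes and carry no test. A few genes weigh on the oxidation means. With OSMI-1 the largest rises were 0.90 for Cpt1a, 0.55 for Mlycd, which is low and was not called, and 0.50 for Cpt1c. The median of the 17 genes was 0.16, with 5 called higher, 1 lower and 11 not called. After knockdown Cpt1a and Cpt1c had the largest rises (1.30 and 0.97), beside a median of 0.17.

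**Figure D5:**
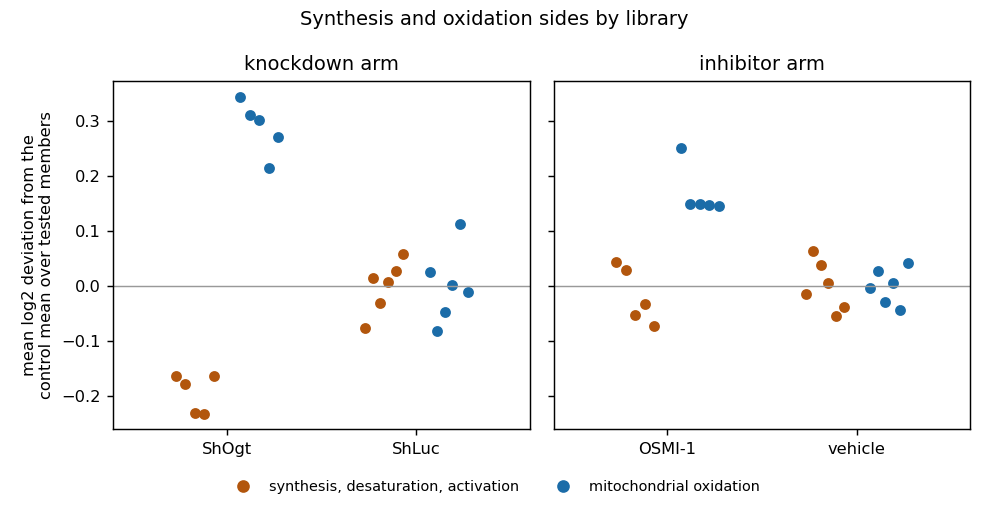
Mean log2 deviation from the control mean (vertical axis) over the 19 synthesis-side and the 17 oxidation-side genes tested, 1 point per library and side, for ShOgt and ShLuc (left) and OSMI-1 and vehicle (right). In ShOgt libraries the mean of the synthesis side lies below and that of the oxidation side above the ShLuc libraries, while with OSMI-1 only the oxidation mean lies apart from its control.

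Per kilobase of the longest coding transcript, the highest levels in the knockdown arm were those of Hadhb, Scd2, Acly and Acadvl. Hadhb had 1889 ± 182 normalized counts per kilobase in ShOgt and 2159 ± 175 in ShLuc libraries, Scd2 1136 ± 65.4 and 1971 ± 201, and Acly 1429 ± 113 and 1569.9 ± 97.6. Scd2 lay above Acadvl in ShLuc libraries and below it in ShOgt libraries, where Acadvl had its higher mean (1679 ± 144 in ShOgt and 1497 ± 143 in ShLuc libraries). Cpt1c, at 876 ± 94.8 in ShOgt and 447 ± 56.7 in ShLuc libraries, lay far above Cpt1a, at 122 ± 20.4 in ShOgt and 52.3 ± 20.9 in ShLuc libraries. The ranges of Fads1 over Fads2 per kilobase, 0.849 to 1.05 in ShOgt and 0.949 to 1.30 in ShLuc libraries, overlapped.

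Genes that surround these pathways were counted from separate lists, naming at most 2 called genes of each. In the knockdown arm these counts stand beside 16.4% lower and 15.4% higher over all genes tested, and a share near those is not a result about its list. After knockdown, 2 of 12 SREBP regulators were lower and 3 higher (16.7% and 25.0%), among them Insig2, which retains SREBP in the endoplasmic reticulum (627 ± 141 in ShOgt and 416 ± 25.9 in ShLuc libraries, 0.56 ± 0.13, adjusted p = 0.0028), and Thrsp, a lipogenic protein (1327 ± 82.2 in ShOgt and 963 ± 90.8 in ShLuc libraries, 0.46 ± 0.08, adjusted p = 0.00025). Of 11 uptake and binding genes 4 were lower and 1 higher (36.4% and 9.09%). The transporter Slc27a1 averaged 3238 ± 249 in ShOgt and 5075 ± 222 in ShLuc libraries (-0.65 ± 0.06, adjusted p = 2.7e-07) and Slc27a3 389.7 ± 69.2 in ShOgt and 208 ± 62.7 in ShLuc libraries (0.93 ± 0.17, adjusted p = 0.0004). Of 15 storage and lipolysis genes 3 were lower and 2 higher (20% and 13.3%), near the shares over all genes. Both named fallers make triglyceride, Dgat2 at 219 ± 35.0 in ShOgt and 387 ± 33.8 in ShLuc libraries (-0.83 ± 0.12, adjusted p = 4.1e-05) and Gpam at 286 ± 60.6 in ShOgt and 434 ± 63.3 in ShLuc libraries (-0.61 ± 0.14, adjusted p = 0.0022).

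Beside the same 15.4% higher and 16.4% lower over all genes, 4 of 9 PPAR partners and targets were higher and 1 lower after knockdown (44.4% and 11.1%), led by Plin2, a lipid droplet coat protein (1172 ± 114 in ShOgt and 629.8 ± 44.7 in ShLuc libraries, 0.89 ± 0.09, adjusted p = 3.1e-07), and Rxrb (0.53 ± 0.17, adjusted p = 0.019). Of 15 other mitochondrial oxidation genes 4 were higher and 1 lower (26.7% and 6.67%), led by the acyl-CoA thioesterase Acot9 (0.97 ± 0.16, adjusted p = 0.00013) and the dienoyl-CoA reductase Decr1 (0.54 ± 0.12, adjusted p = 0.0016). Of 13 peroxisomal genes 3 were higher and 1 lower (23.1% and 7.69%), with Phyh (0.72 ± 0.22, adjusted p = 0.018) and the oxidase Acox3 (0.70 ± 0.19, adjusted p = 0.0096) both higher. Of 13 genes of acetyl-CoA supply and the elongation cycle 3 were lower and 2 higher (23.1% and 15.4%), near the shares over all genes, with Acss1 (-0.69 ± 0.20, adjusted p = 0.013) and the dehydratase Hacd2 (-0.58 ± 0.15, adjusted p = 0.0061) lower. Of 9 genes of mitochondrial fatty acid synthesis 2 were lower and 1 higher (22.2% and 11.1%), also near them, with Mecr (-0.44 ± 0.10, adjusted p = 0.0023) lower and Cbr4 (0.44 ± 0.15, adjusted p = 0.034) higher.

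With OSMI-1, 3 of 12 SREBP regulators were higher (25.0%) and the other 9 were not called, beside 11.6% higher and 13.2% lower over all genes tested in this arm. Insig1, a sterol-regulated brake on SREBP, averaged 1785 ± 87.8 in OSMI-1 and 1149.7 ± 104 in vehicle libraries (0.64 ± 0.07, adjusted p = 5.1e-07), and Prkaa2, an AMP kinase subunit, 128 ± 12.0 in OSMI-1 and 96.4 ± 12.7 in vehicle libraries (0.41 ± 0.14, adjusted p = 0.035). Of 13 peroxisomal genes 5 were higher and 1 lower (38.5% and 7.69%), among them Acox3 (0.63 ± 0.19, adjusted p = 0.017) and the carnitine octanoyltransferase Crot (0.46 ± 0.08, adjusted p = 0.00011). Of 7 PPAR partners and targets 2 were higher (28.6%) and the other 5 not called, the first being Ppargc1a, a coactivator of mitochondrial genes (588 ± 51.3 in OSMI-1 and 391 ± 45.5 in vehicle libraries, 0.59 ± 0.09, adjusted p = 4.9e-05), and Pdk2 (0.30 ± 0.11, adjusted p = 0.048). Of 9 uptake and binding genes 2 were lower and 1 higher (22.2% and 11.1%, the higher share near that over all genes), and both fallers are fatty acid binding proteins of neural progenitors, Fabp5 (1418 ± 153 in OSMI-1 and 2441 ± 311 in vehicle libraries, -0.78 ± 0.09, adjusted p = 6.7e-07) and Fabp7, also on the neural stem cell marker list (-0.53 ± 0.11, adjusted p = 0.00092).

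Beside the same 13.2% lower and 11.6% higher over all genes, 2 of 12 genes of acetyl-CoA supply and the elongation cycle were lower and 4 higher with OSMI-1 (16.7% and 33.3%), with the citrate carrier Slc25a1 higher (0.42 ± 0.09, adjusted p = 0.00082) and malic enzyme Me1 lower (-0.36 ± 0.10, adjusted p = 0.0092). Of 15 other mitochondrial oxidation genes 2 were higher and 1 lower (13.3% and 6.67%), with Acot13 (0.60 ± 0.11, adjusted p = 0.00036) and the electron transfer flavoprotein subunit Etfb (0.39 ± 0.08, adjusted p = 0.0011) higher. Of 14 storage and lipolysis genes 2 were higher (14.3%) and the other 12 not called, so the share higher was near that over all genes for both lists. The storage genes called were the lipase coactivator Abhd5 (0.57 ± 0.10, adjusted p = 0.00028) and Lpin1 (0.51 ± 0.11, adjusted p = 0.0012). None of 9 genes of mitochondrial fatty acid synthesis was called by limma, edgeR or DESeq2 with OSMI-1, while 3 had an unadjusted p below 0.05 (Acsf3, Lias and Ndufab1, named after their values were seen).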

How the data were processed

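RNA of 22 libraries was measured by sequencing. The labels' protocols name strand-specific poly(A) libraries and the series' design text names Smart-Seq2, a conflict that remains. STAR, RSEM and DESeq2 are named without versions, per the submitters' processing notes, and the build listed there is human, while the tables carry mouse symbols; the mouse build and the strand setting of the counting were not given in the sources used here. The authors deposited 1 table per arm with normalized counts per library, a signal that is never negative, and beside them per gene a log2 fold change, its error, a Wald score, a p-value and an adjusted p-value. The deposited log2 fold change of the inhibitor table is vehicle over OSMI-1 and was not used for values here.

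Reads were recovered from the values, 100% of which were multiples of a library's smallest step (within 0.001). All columns of samples were used. Genes were kept by the filterByExpr rule of edgeR on these reads (minimum count 10, minimum total 15), leaving 12136 and 11349 genes. The test was limma (3.58.1, R 4.3.3) on log2(normalized count + 1) with the trend option, each arm by itself, without covariates, two-sided, adjusted by Benjamini and Hochberg over all genes tested. Differences between the arms used the estimates and standard errors of both fits. On the recovered reads, the quasi-likelihood test of edgeR (4.0.16) called 3848 and 2804 genes, against 3855 and 2815 by limma; DESeq2 (1.42.0) was a further alternative. The script was tested on simulated data. No 2 libraries agreed within sampling noise (smallest chi-square per degree of freedom 5.73 and 3.63).

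The fatty acid genes, the other gene lists and the sequence AACATGC were chosen with earlier results of these data known. Genes with a mean of at least 100 in an arm, called there and changed by at least 0.3 on the log2 scale are given in every library, the others by mean ± SD, and at most 2 called genes of each other list are named. Lengths and 3′UTRs came from GENCODE M21 and promoters from RefSeq, matched by symbol, with 34 of 39 genes matched to a promoter. The alternatives were other pseudocounts (0.5 and 5), filters (none, or a mean of at least 50), scalings, tools, library weights, a replicate block, each library left out, and libraries that stand apart left out.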

Additional observations from a re-analysis of the deposited data

Results flagged for a closer look

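In 8 of 144 groups of libraries and genes (5.56%), the highest or lowest library lay far from the rest of its group, by Dixon's 95% critical value for its gap over the group's range; chance gives such a gap in about 1 in 20 groups. Acsl1 stood at 76.2 in ShOgt library 3, against 126 to 141 in the other libraries of that group. Acsl1 stood at 184 in ShLuc library 6, against 102 to 119.6 in the other libraries of that group. Acsl4 stood at 137 in ShOgt library 6, against 71.5 to 82.7 in the other libraries of that group. Slc25a20 stood at 617 in ShLuc library 3, against 779 to 854 in the other libraries of that group. Acaca stood at 164 in OSMI-1 library 2, against 221 to 236 in the other libraries of that group. Elovl2 stood at 112 in vehicle library 5, against 150.1 to 168 in the other libraries of that group. Elovl5 stood at 633 in OSMI-1 library 4, against 808 to 873 in the other libraries of that group. Acadl stood at 1207 in vehicle library 1, against 926 to 1007 in the other libraries of that group. The called changes of Slc25a20 after knockdown and of Elovl2 and Acadl with OSMI-1 kept their call when that library was left out.

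The changes of 16 genes differed between the arms in the test of the difference itself. The log2 fold change after knockdown minus that with OSMI-1 was -0.30 for Acly, -0.64 for Acaca, -0.46 for Fasn, -0.70 for Elovl6, -0.37 for Scd1 and -0.76 for Scd2. It was -0.93 for Fads1, -0.69 for Fads2, -0.40 for Hadha, -0.41 for Hadhb and -0.48 for Eci1. It was positive for the others, at 1.26 for Fads3, 0.48 for Srebf1, 0.47 for Cpt1c, 0.47 for Acads and 0.44 for Acadl.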

How the results depend on the processing

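Over the alternatives, 297 of 306 recomputed counts stayed within 1.5 times the reported one, and no called gene changed direction. Of the called changes, 15 of 17 after knockdown (all but Elovl5 and Scd1), 10 of 10 with OSMI-1 and 13 of 16 differences between the arms (all but Acly, Cpt1c and Scd1) kept their call under every alternative run. In the other direction, 5 genes not called after knockdown (Acadl, Acadvl, Acly, Acss2 and Hadhb), 3 with OSMI-1 (Acadm, Hadha and Slc25a20) and 1 difference (Elovl1) were called under at least 1 alternative. The exceptions among the counts were small ones. The oxidation-side genes lower after knockdown, 1 as reported, numbered 2 under TMM scaling, array weights, a mean of at least 50, and without the libraries that stand apart, the added gene being Hadhb. Leaving out 1 library each gave 1 to 2 for this count and 1 to 2 for the synthesis-side genes higher after knockdown, the added gene there being Acss2 (without ShOgt 5). Counting enzymes and carriers only left 1 synthesis-side gene lower with OSMI-1. The same setting, which leaves out Cpt1c, gave 5 oxidation-side genes higher after knockdown. With 1 library left out, the synthesis-side genes lower after knockdown numbered 7 to 9 and the oxidation-side genes higher with OSMI-1 5 to 6, and all genes called numbered 3209 to 3893 after knockdown and 2427 to 2671 with OSMI-1. Elovl5 and Scd1 also lost their call under scaling to total reads without the ribosomal precursor Rn45s (-0.17 and -0.22, adjusted p = 0.096 and 0.095), and Elovl5 without the libraries that stand apart (-0.16, adjusted p = 0.14). The alternative without OSMI-1 library 4, the deepest of its arm, is the same as leaving out that library. Same-numbered libraries correlated by -0.0086 to 0.16 after knockdown and -0.099 to 0.051 with OSMI-1. Libraries of different number correlated by -0.18 to 0.13 after knockdown and -0.084 to 0.084 with OSMI-1. The highest value after knockdown, 0.16, was that of ShOgt 3 and ShLuc 3, and whether replicate numbers pair the libraries was not settled. With the replicate block, the counts lower after knockdown were 10 on the synthesis side, with Acly added, and 2 on the oxidation side. In that setting 3962 and 2376 genes were called in the knockdown and the inhibitor arm.

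Ppara, Pdk4 and Mlycd, of low level, were called in neither arm, which does not show that their levels were the same; the part of depth in this was not tested. Acacb, Cpt1b and Ppard lay below the filter.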
